A study of Arabidopsis thaliana with 8 samples.

Results

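A set of 19 strongly detected genes of this array comparison is described here. The plants were Arabidopsis thaliana, wild type of ecotype Landsberg, and spent 48 h at 20 µE either in red or in white light. The genes were chosen by level, as the probes that the platform annotation pairs with exactly 1 gene and whose mean intensity over all 8 samples was 2 or more in the arbitrary units of the deposited table. Of 3439 probes 692 have 1 gene, and 26 of these 692 reached that level. The photosystem, antenna and NDH genes LHB1B2, PSAN, PSBW and NdhS, the geranylgeranyl reductase AT1G74470 and the pentatricopeptide repeat genes AT3G26630 and AT2G19280 were left out, which leaves 19. Each light has 4 samples of total RNA, numbered 1 to 4. The labels place the red-light plants in red light at the end of their growth, and they give no tissue, age or earlier light regime for either group. Nor do they tie a sample to its own plants or culture, so that each test below measures spread among samples that could be technical repeats.

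Red light is absorbed by chlorophyll and by the phytochromes, the red and far-red photoreceptors of plants, while white light also carries the blue wavelengths that cryptochromes and phototropins sense. Plants thus meet a different balance of photoreceptor signals in red light even where the stated intensity is equal. A probe's intensity rises with the amount of its transcript, but it also depends on the probe's own sequence, length and labelling. The order of genes given below is therefore an order of probe signals and not of transcript amounts. In whole-plant or organ RNA, a change in the share of a cell type cannot be told apart from a change in RNA per cell.

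Because the level chose these genes, their levels and ranks are a description. The means just above the threshold were 2.10 for AT4G18180, 2.12 for AT5G65220, 2.47 for CML30 and 3.95 for AT4G39690, and those just below it were 1.96 for AT3G44020, 1.95 for AT5G11010, 1.88 for AT2G39360 and 1.82 for AT3G04650. Of the 19 genes, 14 had a mean of 2 or more in both lights, 4 in red light only (AT4G17070, AT4G32060, AT4G29890 and AT4G18180) and 1 in white light only (AT5G65220). Those 5 genes entered through the light in which they were higher.

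Samples 1 and 2 of a light resembled each other, as did samples 3 and 4, and this shapes many of the values below. Spearman correlations across all probes were 0.910 to 0.947 inside these pairs and 0.777 to 0.825 across the pairs of a light. Summed intensity over all probes was 2549 to 3196 in red light and 1691 to 2373 in white light, so the red arrays were brighter in total. Their medians were 0.202 to 0.257 on the red arrays and 0.237 to 0.289 on the white arrays, and probes at 0 numbered 573 to 604 on the red arrays and 393 to 468 on the white arrays. The ceiling of the scale, 100, was reached by 2 to 4 probes on each red array and by none on the white arrays.

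The 19 genes together carried 9.81%, 10.1%, 8.30% and 8.84% of the summed intensity of all probes in red samples 1 to 4, against 9.76%, 9.52%, 5.69% and 5.40% in white samples 1 to 4. White samples 1 and 2 lay inside the red range, and white samples 3 and 4 lay below it. Within the 692 probes of 1 gene, they carried 38.4% to 49.1% of the sum in red light and 28.3% to 45.5% in white light. On the deposited scale all red samples lay above all white samples for 7 of the 19 genes (11.7% of all probes tested) and below them for 1 gene (19.7% of all probes tested).

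**Figure D1:**
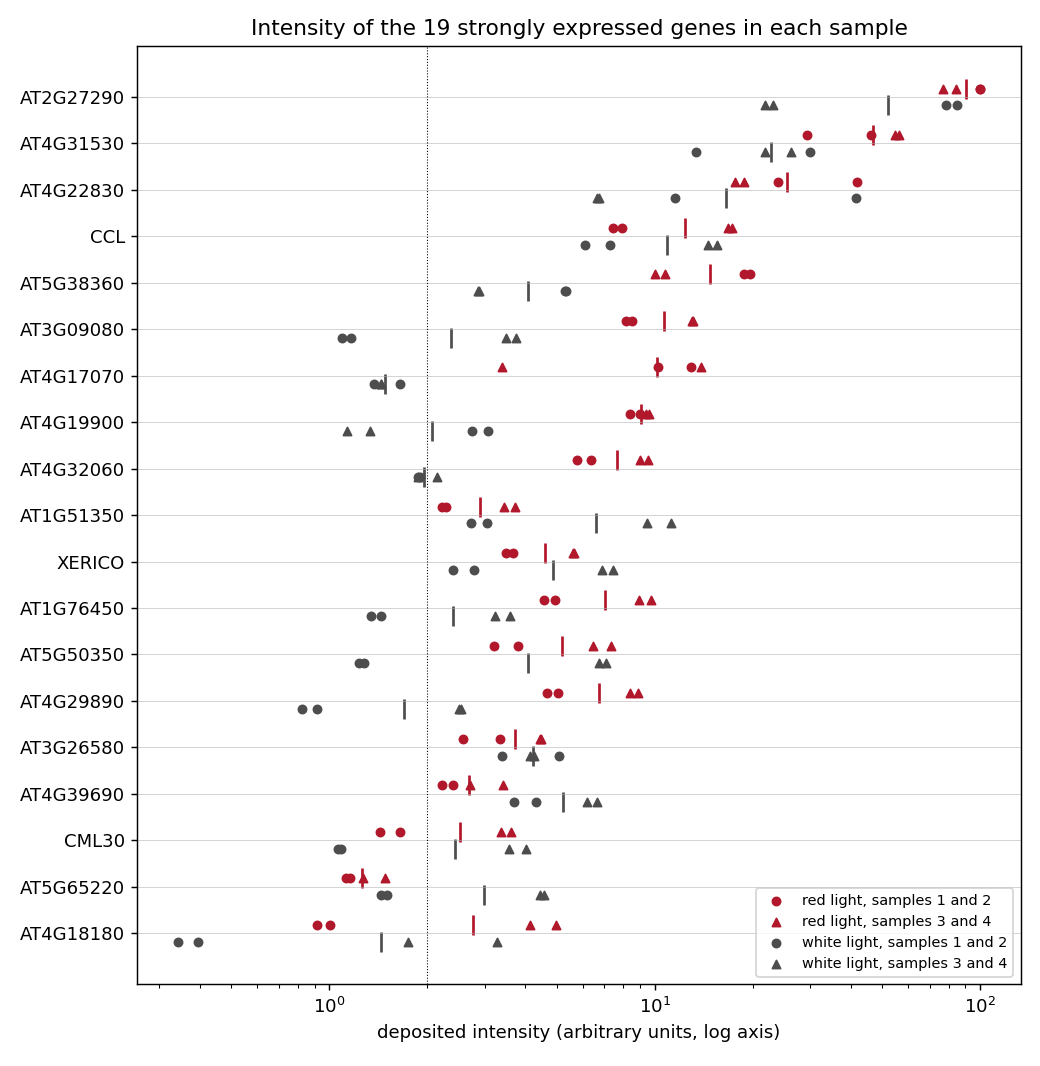
Deposited intensity of the 19 genes on a log axis, with red-light samples above white-light samples in each row, circles for samples 1 and 2, triangles for samples 3 and 4, and a vertical tick for the mean of each light; the dotted line marks the threshold of 2. The 4 red samples lie above the 4 white samples for 7 genes and below them for AT4G39690, and the ranges overlap for the other 11.

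By the mean of its 4 samples, the same 3 probes led in each light, although not on every white array: AT4G31530 was highest in white sample 3, and AT4G22830 ranked as low as 7 on a white array. AT2G27290, whose protein has no role named here, had the highest mean, with intensities of 100, 100, 76.6 and 84.1 in red samples 1 to 4 and 85.0, 78.5, 21.8 and 23.0 in white samples 1 to 4. The first red values stand at the ceiling, so that they are lower limits, and white samples 1 and 2 lay inside the red range while white samples 3 and 4 fell far below it. Its mean was 90.2 ± 11.7 in red light, against 52.1 ± 34.4 in white light (SD, n = 4 each). After quantile normalization the log2 difference, red minus white, was 0.28 ± 0.44 (SE, limma adjusted p = 0.688). That normalization sets equal ranks on all arrays to equal values, which limits the difference a probe near the top of every array can show. As deposited the difference was 1.07 (adjusted p = 0.141), and with arrays centred on their medians it was 1.26 (adjusted p = 0.127). With the ceiling values treated as missing the log2 difference was -0.12, but this sets red samples 3 and 4 against all 4 white samples. Between samples 1 and 2 of the lights it was -0.08, and between samples 3 and 4 it was 0.64. AT2G27290 held 29.1% to 38.8% of the summed intensity of the 19 genes in red light and 16.3% to 48.7% in white light.

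AT4G31530, a member of the NAD(P)-binding Rossmann-fold family of oxidoreductase-like proteins, came second. It had 29.2, 46.2, 54.8 and 56.4 in red samples 1 to 4, against 13.4, 29.9, 26.1 and 21.8 in white samples 1 to 4. Only red sample 1 fell inside the white range. This gene shows how far the scaling of arrays decides a difference at the bright end of the scale. Its log2 difference was -0.09 ± 0.37 (adjusted p = 0.883) after quantile normalization, 1.05 as deposited (adjusted p = 0.0433) and 1.25 with arrays centred on their medians (adjusted p = 0.0150).

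AT4G22830 encodes a YCF49-like protein, a family named for an open reading frame of algal plastid genomes. Its intensities were 41.7, 23.9, 17.7 and 18.7 in red samples 1 to 4 and 41.4, 11.5, 6.72 and 6.64 in white samples 1 to 4. Sample 1 was the highest of its light in both groups, and the groups overlapped through white sample 1 alone. The log2 difference was 0.19 ± 0.66 (adjusted p = 0.867), and it was -0.59 between samples 1 and 2 of the lights and 0.97 between samples 3 and 4. The 3 leading probes together made up 56.4% to 65.9% of the sum of the 19 genes in red light and 40.1% to 78.7% in white light.

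**Figure D2:**
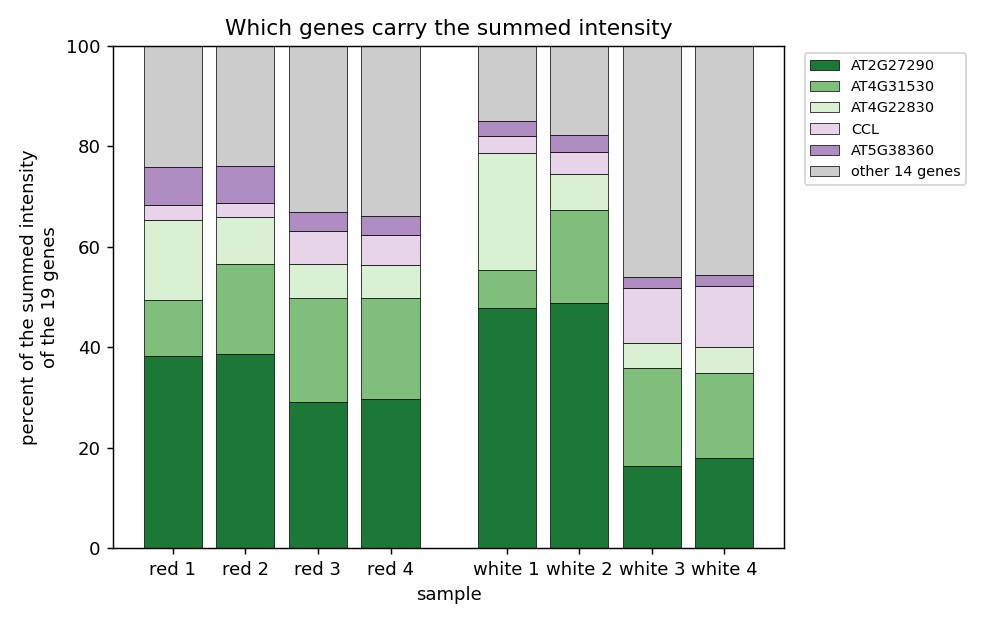
Percent of the summed deposited intensity of the 19 genes carried by the 5 genes with the highest mean and by the other 14, for each of the 4 red and 4 white samples. AT2G27290 alone holds 29.1% to 38.8% in red light, 47.8% and 48.7% in white samples 1 and 2, and 16.3% and 17.9% in white samples 3 and 4.

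Below the leading probes the order differed between the lights. Of the 10 highest genes in each light 5 were the same, of the 5 highest 4, and 14 genes stood 3 or more places apart in the 2 orders. In red light AT4G17070 ranked 7, AT3G09080 ranked 6, AT4G19900 ranked 8 and AT4G32060 ranked 9. In white light they ranked 18, 14, 15 and 16. The opposite shift was seen for AT4G39690, AT1G51350 and AT5G65220, which ranked 17, 15 and 19 in red light, against 6, 5 and 11 in white light. Over the 19 genes the Spearman correlation between the mean levels of the 2 lights was 0.333, given as a description of genes that share the same arrays. Ranks within an array do not depend on its scale. The genes named here were picked by the gap between their ranks in the 2 lights, which favours single-array ranks that do not overlap. AT4G17070, AT4G32060 and AT5G65220 had also reached the level threshold in 1 light only. As a description, the ranks on single red and white arrays did not overlap for all but 2 of these genes. AT4G32060 ranked 7 to 10 on the red arrays and 11 to 17 on the white arrays. AT3G09080 ranked 5 to 7 on the red arrays and 11 to 16 on the white arrays, and AT4G39690 ranked 15 to 18 on the red arrays and 6 to 8 on the white arrays. AT1G51350 ranked 15 to 17 on the red arrays and 4 to 10 on the white arrays, and AT5G65220 ranked 18 to 19 on the red arrays and 9 to 13 on the white arrays. The other 2 overlapped: AT4G17070 ranked 5 to 17 on the red arrays and 12 to 18 on the white arrays, and AT4G19900 ranked 6 to 9 on the red arrays and 8 to 19 on the white arrays.

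**Figure D3:**
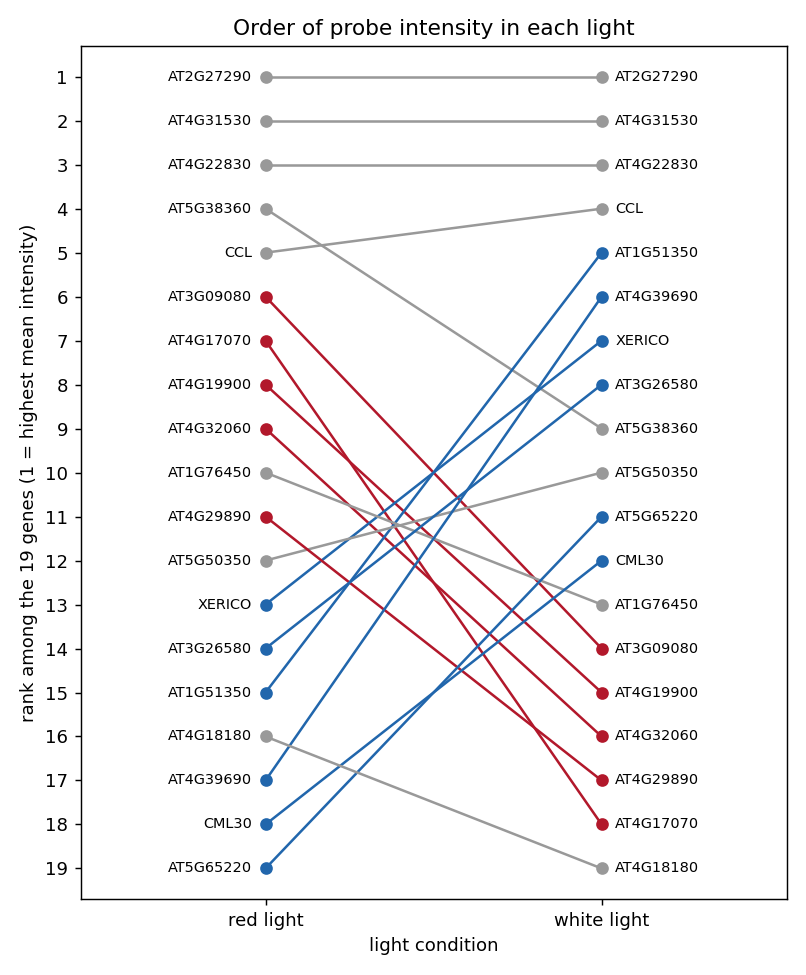
Rank of each gene by its mean deposited intensity in red light (left) and in white light (right), 1 being the highest; red lines mark genes that stand 6 or more places higher in red light, blue lines those that stand 6 or more places lower, grey lines the rest. AT2G27290, AT4G31530 and AT4G22830 keep places 1 to 3, and AT4G17070 and AT4G39690 are each 11 places apart.

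By the role given here, the genes were grouped into enzyme families, plastid proteins, mitochondrial proteins, regulators, proteins of repeat families and genes with no role. These classes mix location with protein family, and each gene was put in 1 class only. A gene of another class may also act in plastids or mitochondria. The shares below therefore do not measure the whole part of either. The 3 genes without a role took the largest mean share of the summed intensity, 39.7% ± 5.5 in red light, against 36.7% ± 15.3 in white light (SD, n = 4 each), most of it from AT2G27290. The 5 genes of enzyme families followed with 30.0% ± 4.0 in red light, against 21.9% ± 6.2 in white light, carried mostly by AT4G31530. The 3 plastid genes held 12.7% ± 3.6 in red light, against 14.0% ± 7.3 in white light, most of it from AT4G22830. The 3 genes grouped as regulators had 7.2% ± 2.7 in red light, against 13.0% ± 8.0 in white light. They held 5.6%, 6.7%, 18.7% and 21.0% in white samples 1 to 4. White samples 1 and 2 thus lay inside the red range of 4.9% to 9.9%, and white samples 3 and 4 lay above it. CCL, placed here because its transcript is under clock control, held 4.6% ± 1.9 in red light, against 7.7% ± 4.4 in white light. No regulatory role of its protein is given here. Repeat proteins had 6.5% ± 1.5 in red light, against 9.4% ± 5.2 in white light. The 2 mitochondrial genes had the smallest share, 3.9% ± 0.8 in red light, against 5.0% ± 1.7 in white light. That order of the means did not hold in every sample. In white samples 3 and 4 the plastid genes, with 11.1% and 11.2%, came below the regulators and the repeat proteins (14.2% and 13.4%). In white sample 1 the plastid genes held 24.9%. The genes without a role held 44.4%, 44.2%, 33.2% and 37.0% in red samples 1 to 4, against 49.5%, 50.4%, 22.7% and 24.3% in white samples 1 to 4. Enzyme families held 24.2%, 30.8%, 33.3% and 31.7% in red samples 1 to 4, against 12.8%, 24.5%, 26.9% and 23.6% in white samples 1 to 4, and were thus the higher of the pair in sample 3 of each light.

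Between the lights, 4 of the 19 genes rose in red light (AT3G09080, AT4G17070, AT4G32060 and AT4G29890), 4 fell (AT4G39690, AT1G51350, AT3G26580 and AT5G65220), and 11 did not pass the test, at an adjusted p under 0.05 in limma. The test was fitted and adjusted over all 3032 probes above the floor of the scale. The share called was 42.1% for the 19 genes, against 22.0% of all probes tested (11.0% higher and 10.9% lower) and 43.4% of the 129 other probes with a mean of 2 or more. The calls of AT4G17070, AT4G32060, AT4G29890 and AT5G65220 belong to genes that reached the level threshold in 1 light only, which favours a difference. Among the 14 genes above the threshold in both lights 1 rose, 3 fell and 10 did not pass. The median log2 difference was 0.19 over the 19 genes and -0.03 over all probes tested.

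That balance depended on the scaling. With values as deposited 8 genes were called higher and 1 lower, where 9.69% of all probes tested were called higher and 15.4% lower. Centring on array medians also gave 8 and 1, beside 14.8% and 11.9% of all probes. The median log2 difference of the 19 genes was 1.05 as deposited and 1.25 after centring, while that of all probes was -0.14 and 0.02. Other bright probes had medians of 0.85 and 1.05 under these scalings. Calls in the same direction under all 3 scalings were made for 5 genes. AT3G09080, AT4G17070, AT4G32060 and AT4G29890 were higher, and AT4G39690 was lower. The share of all probes called under all 3 was not counted, so this count has no background. Under the single scalings 42.1% to 47.4% of the 19 genes were called, against 43.4% to 45.7% of the other bright probes. Fitting the sample number as a block gave 6 higher and 4 lower (12.7% and 13.3% of all probes). With samples 1 and 2, and samples 3 and 4, of a light as a random block, 0 genes passed as higher (2.34% of all probes) and 1 as lower (1.42%), AT4G39690 (adjusted p = 0.0412). With each such pair of samples averaged to 1 value, limma called 0 of the 19 genes and 0 of all probes, where 7 of the 19 genes and 458 of the 3032 probes tested had an unadjusted p under 0.05.

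**Figure D4:**
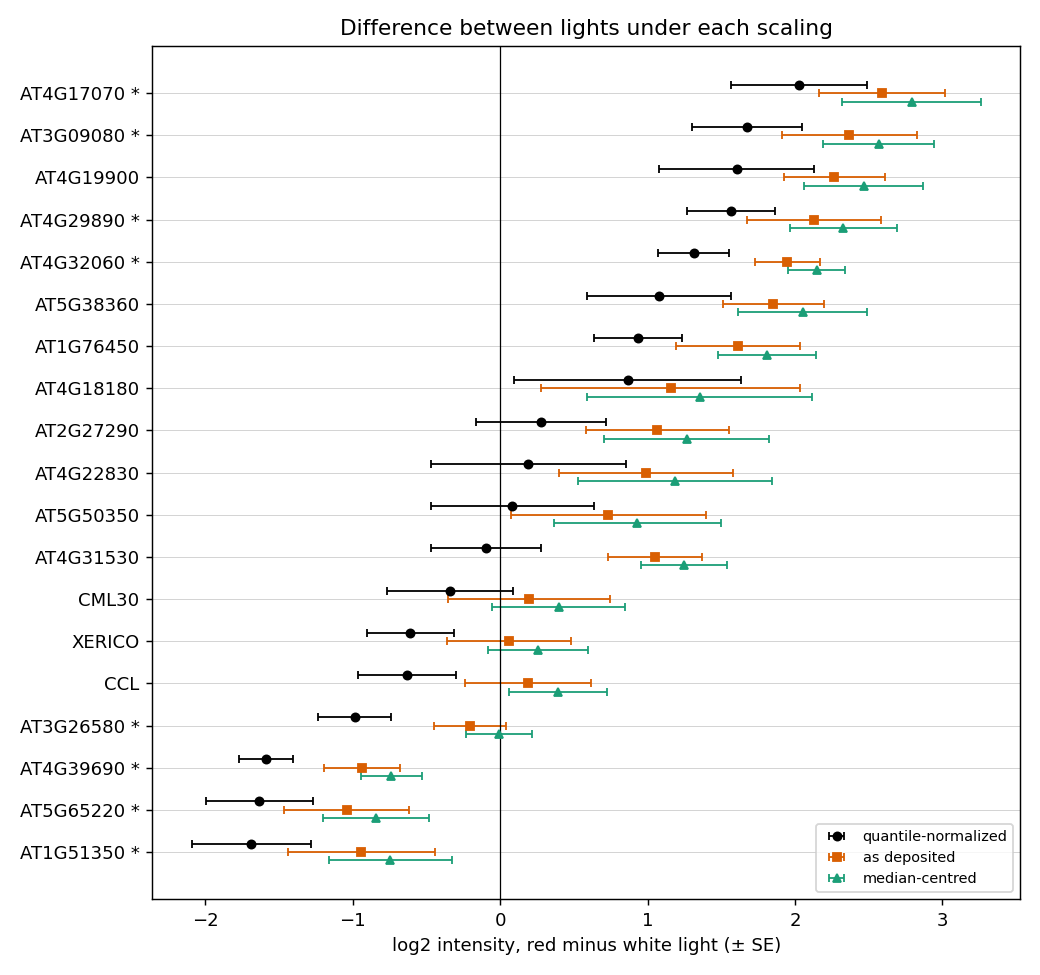
Log2 difference of intensity, red minus white light, with its SE from limma (n = 4 samples each), after quantile normalization (black), as deposited (orange) and with arrays centred on their medians (green); a star marks genes called after quantile normalization. AT4G17070 is highest with 2.02 and AT1G51350 lowest with -1.69 after quantile normalization, and values as deposited or median-centred lie to the right of these for each gene.

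Both genes grouped as mitochondrial were called after quantile normalization, in opposite directions, and neither was called with similar samples averaged. AT4G39690 encodes MIC60, a protein of the inner membrane contact site complex that shapes cristae, and its intensities were 2.22, 2.40, 3.40 and 2.70 in red samples 1 to 4, against 3.70, 4.31, 6.66 and 6.19 in white samples 1 to 4. Every red sample lay below every white sample. After quantile normalization it fell by 1.59 in log2 units (SE 0.18, adjusted p = 0.00129), and the difference was -0.94 as deposited (adjusted p = 0.0289) and -0.74 after centring (adjusted p = 0.0302). The difference was -1.65 between samples 1 and 2 of the lights and -1.52 between samples 3 and 4.

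AT4G32060 encodes a MICU protein, an EF-hand regulator of calcium uptake into mitochondria. It had 6.38, 5.77, 9.52 and 9.01 in red samples 1 to 4, against 1.87, 1.89, 1.88 and 2.14 in white samples 1 to 4. The white samples were nearly equal, and the lowest red sample lay well above the highest white one. It rose 2.48-fold after quantile normalization (log2 difference 1.31 ± 0.24, adjusted p = 0.00667), and its mean deposited intensity was 3.94 times as high in red light. With similar samples as a random block the adjusted p was 0.0732.

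Of the 5 genes of enzyme families, 1 rose and 4 did not pass the test. AT4G29890, a choline monooxygenase-like gene named for the enzyme that starts glycine betaine synthesis in spinach, had 5.02, 4.66, 8.41 and 8.88 in red samples 1 to 4. In white samples 1 to 4 it had 0.914, 0.824, 2.54 and 2.50. The groups did not overlap, and in both lights samples 3 and 4 were higher than samples 1 and 2. It rose 2.96-fold (log2 difference 1.57 ± 0.30, adjusted p = 0.00757), with 1.84 between samples 1 and 2 of the lights and 1.29 between samples 3 and 4. With similar samples as a random block the adjusted p was 0.0520.

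AT4G19900 belongs to a glycosyltransferase family, whose enzymes join sugars to other molecules. Its red samples 1 to 4 had 8.37, 9.03, 9.41 and 9.57, against 2.74, 3.06, 1.14 and 1.33 in white samples 1 to 4. The red values were close together and all above the white ones, and the white values fell into 2 levels. The log2 difference of 1.60 ± 0.53 missed the threshold (adjusted p = 0.0588), and it was 0.62 between samples 1 and 2 of the lights and 2.58 between samples 3 and 4. It passed without white sample 1 (adjusted p = 0.0489) or white sample 2 (adjusted p = 0.0288). It also passed as deposited (2.27, adjusted p = 0.00243) and after centring (2.47, adjusted p = 0.00290). It did not pass with similar samples as a random block (adjusted p = 0.183) or without any other single sample (adjusted p up to 0.126).

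AT5G38360, of the alpha/beta hydrolase family of esterases, lipases and related enzymes, had 19.6, 18.8, 10.03 and 10.7 in red samples 1 to 4 and 5.34, 5.28, 2.88 and 2.85 in white samples 1 to 4. Samples 1 and 2 were the higher ones in both lights, and every red sample exceeded every white sample as deposited. After quantile normalization the groups overlapped and the log2 difference was 1.08 ± 0.49 (adjusted p = 0.144). Red was higher than white in 4 of 4 same-numbered samples, and with that number as a block the adjusted p was 0.0193. Values as deposited gave 1.85 (adjusted p = 0.00561) and centring gave 2.05 (adjusted p = 0.00979). The gene did not pass with similar samples as a random block (adjusted p = 0.319) or without any single sample (adjusted p 0.0969 to 0.280).

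AT4G18180 is pectin lyase-like, a fold shared by enzymes that act on pectin in the cell wall. It had 1.01, 0.916, 4.97 and 4.13 in red samples 1 to 4, against 0.393, 0.341, 3.28 and 1.75 in white samples 1 to 4. The gap between samples of a light was wider here than that between the lights. The log2 difference was 0.86 ± 0.77 (adjusted p = 0.451).

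Among the plastid genes beside AT4G22830, 1 fell and 1 did not pass. AT5G65220 encodes a plastid ribosomal protein of the L29 family, part of the large subunit that translates plastid messages. It had 1.12, 1.16, 1.49 and 1.26 in red samples 1 to 4, against 1.50, 1.44, 4.55 and 4.44 in white samples 1 to 4. White samples 3 and 4 stood far above the rest, while white samples 1 and 2 were close to the red values and overlapped them as deposited. After quantile normalization it fell by 1.63 in log2 units (SE 0.36, adjusted p = 0.0143), with -0.92 between samples 1 and 2 of the lights and -2.34 between samples 3 and 4. The call was not made as deposited (-1.04, adjusted p = 0.107), after centring (-0.84, adjusted p = 0.116) or with similar samples as a random block (adjusted p = 0.0760).

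AT1G76450 encodes a protein of the PsbP family, relatives of the extrinsic oxygen-evolving subunit of photosystem II that lie in the thylakoid lumen. Its red samples 1 to 4 had 4.58, 4.94, 8.92 and 9.69 and its white samples 1 to 4 had 1.34, 1.44, 3.59 and 3.23. All red values exceeded all white values as deposited, and samples 3 and 4 were higher in both lights. The log2 difference was 0.93 ± 0.30 (adjusted p = 0.0560). It passed with the sample number as a block (adjusted p = 0.0202) and without white sample 3 (adjusted p = 0.0307). It also passed as deposited (1.61, adjusted p = 0.0244) and after centring (1.81, adjusted p = 0.00490). It did not pass with similar samples as a random block (adjusted p = 0.251) or without any other single sample (adjusted p up to 0.130).

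Of the 3 genes in repeat families, which mostly serve as surfaces for binding other proteins, 1 rose and 2 fell. AT3G09080, of the WD40 repeat family, had 8.51, 8.14, 13.0 and 13.1 in red samples 1 to 4, against 1.16, 1.10, 3.73 and 3.48 in white samples 1 to 4. The groups were far apart, with samples 3 and 4 the higher ones in both lights. It rose 3.19-fold (log2 difference 1.67 ± 0.37, adjusted p = 0.0148), with 2.14 between samples 1 and 2 of the lights and 1.21 between samples 3 and 4. With similar samples as a random block the adjusted p was 0.0723.

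AT1G51350, of the armadillo repeat family, had 2.28, 2.22, 3.71 and 3.43 in red samples 1 to 4, against 2.72, 3.05, 11.2 and 9.47 in white samples 1 to 4. White samples 3 and 4 were the high ones, and as deposited red samples 3 and 4 lay above white samples 1 and 2, so that the groups overlapped. After quantile normalization it fell by 1.69 in log2 units (SE 0.41, adjusted p = 0.0191), with -1.11 between samples 1 and 2 of the lights and -2.27 between samples 3 and 4. The call was not made as deposited (-0.94, adjusted p = 0.201), after centring (-0.74, adjusted p = 0.215) or with similar samples as a random block (adjusted p = 0.0920).

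AT3G26580, of the tetratricopeptide repeat family, had 2.57, 3.35, 4.44 and 4.48 in red samples 1 to 4, against 3.40, 5.08, 4.12 and 4.25 in white samples 1 to 4. These deposited values overlapped widely. It fell by 0.99 after quantile normalization (SE 0.25, adjusted p = 0.0223), where the groups no longer overlapped, but its log2 difference was -0.20 as deposited (adjusted p = 0.569) and -0.01 after centring (adjusted p = 0.993). The call was lost without red sample 1 (adjusted p = 0.0595), without white sample 1 (adjusted p = 0.0534) and with similar samples as a random block (adjusted p = 0.270).

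None of the 3 genes grouped as regulators passed the test in limma. CCL (AT3G26740), or CCR-like, is known for an unstable message under control of the circadian clock, and it ranked 5 in red light, against 4 in white light. Its intensities were 7.94, 7.44, 17.2 and 16.8 in red samples 1 to 4 and 6.11, 7.28, 14.5 and 15.5 in white samples 1 to 4. The samples of a light differed far more than the lights did, samples 3 and 4 being high in both. The log2 difference was -0.63 ± 0.33 (adjusted p = 0.198) after quantile normalization, 0.19 as deposited and 0.39 after centring.

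XERICO (AT2G04240) encodes a small RING-type ubiquitin ligase linked to the level of abscisic acid, a hormone of drought and seed dormancy. It had 3.67, 3.48, 5.58 and 5.62 in red samples 1 to 4, against 2.78, 2.40, 6.88 and 7.42 in white samples 1 to 4. Red values lay inside the white range. The log2 difference was -0.61 ± 0.29 (adjusted p = 0.168) after quantile normalization and 0.06 as deposited.

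CML30 (AT2G15680), a calmodulin-like protein, one of a family that binds calcium, had 1.43, 1.65, 3.37 and 3.60 in red samples 1 to 4. Its white samples 1 to 4 had 1.06, 1.08, 3.57 and 4.03, a range that encloses the red one. Its log2 difference was -0.34 ± 0.43 (adjusted p = 0.598) after quantile normalization and 0.20 as deposited. All 3 genes grouped as regulators thus had the sign of their difference set by the scaling, like AT4G31530.

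Of the genes without a role, AT4G17070 rose and AT2G27290 and AT5G50350 did not pass. AT4G17070 had 12.9, 10.2, 3.40 and 13.9 in red samples 1 to 4, against 1.65, 1.37, 1.45 and 1.44 in white samples 1 to 4. White samples were nearly equal, red sample 3 stood apart from the other red samples, and even that sample exceeded the highest white value. It rose 4.07-fold (log2 difference 2.02 ± 0.46, adjusted p = 0.0158), and the log2 difference without red sample 3 was 2.46. With similar samples as a random block the adjusted p was 0.303.

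AT5G50350 had 3.20, 3.79, 7.31 and 6.45 in red samples 1 to 4 and 1.27, 1.23, 7.08 and 6.75 in white samples 1 to 4. Samples 3 and 4 were alike in both lights, and samples 1 and 2 were higher in red light. The log2 difference was 0.08 ± 0.55 (adjusted p = 0.930), from 0.85 between samples 1 and 2 of the lights and -0.69 between samples 3 and 4.

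The split between samples 1 and 2 and samples 3 and 4 ran through most of the 19 genes. As deposited, both of samples 3 and 4 exceeded both of samples 1 and 2 for 15 genes in red light. The same held for 11 genes in white light, all 11 of them shared. The shares of all probes tested were 44.9% in red light and 48.5% in white light. The reverse order was seen for 3 genes in red light and 4 in white light. The median ratio of the mean of samples 3 and 4 over that of samples 1 and 2 was 1.53 in red light, against 2.24 in white light. AT4G18180 had the highest ratio in both lights, 4.74 in red light and 6.84 in white light, while AT4G22830 had 0.555 in red light and 0.252 in white light. The log2 difference between the lights after quantile normalization had the same sign in samples 1 and 2 as in samples 3 and 4 for 14 of the 19 genes. What sets these samples apart is not given in the labels, and its part in the differences between the lights was not tested.

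**Figure D5:**
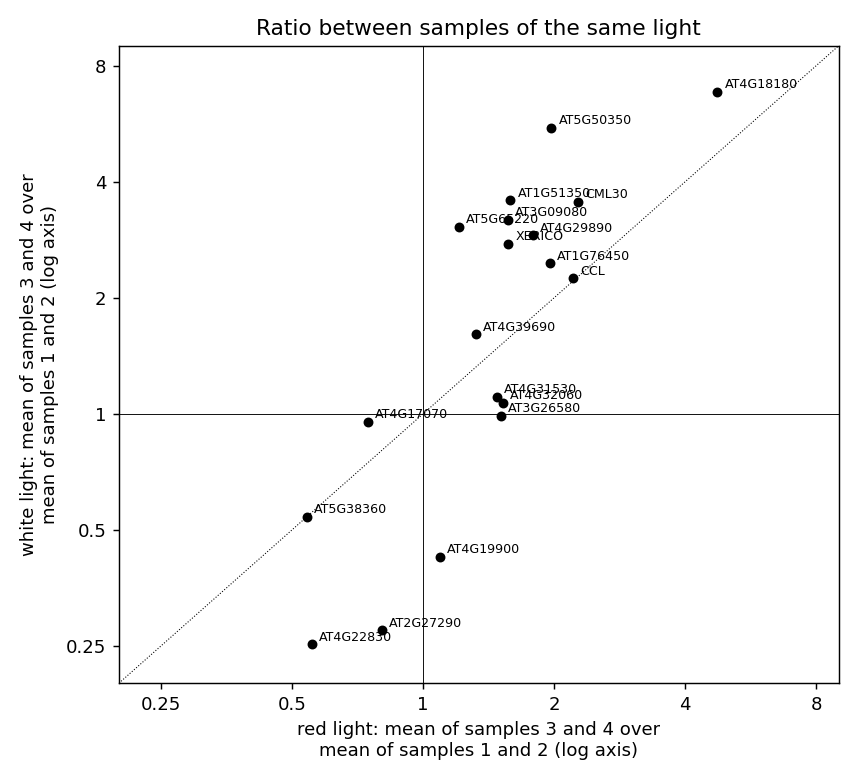
Ratio of the mean deposited intensity of samples 3 and 4 over that of samples 1 and 2 in red light (x axis) and in white light (y axis), both on log axes, for the 19 genes; solid lines mark a ratio of 1 and the dotted line equal ratios. AT4G18180 lies highest with 4.74 in red light and 6.84 in white light; AT4G22830 has 0.555 in red light and 0.252 in white light.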

How the data were processed

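The deposited table holds 1 column of probe intensities per sample on a linear scale, from 0 to a ceiling of 100; for the authors' background correction and scaling, and for a build, nothing is given in the sources used here, and no coordinates are printed. Columns were matched to samples by accession and to lights by title. Probes were named from the platform annotation; 690 of 692 probes with 1 gene matched a gene table of the TAIR10.1 assembly. That table has no descriptions, so word lists over gene names could not be used. Roles of 13 of the 19 genes, and the 2 pentatricopeptide repeat genes, come from general knowledge and were not checked against that table. For 3 genes its symbols or synonyms gave the name, and what is said beyond the name is also general knowledge. The other 3 genes have no role given. All samples were quantile-normalized, raised to 1 floor (0.0716, the highest over arrays of the percentile 5 of positive values), and log2 values were fitted for red minus white with limma 3.58.1 (R 4.3.3); p-values are two-sided and adjusted by Benjamini-Hochberg over 3032 probes; 407 probes at the floor throughout were left out. Folds come from this fit, intensities from the deposited scale. The number of arrays limits the precision. All 19 genes are given with their values, which covers the rule for named genes (the 10 highest in each light, the 8 largest called rises and falls, those at the ceiling). The genes, lists and tests were chosen with earlier results of these data known.

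Same-numbered red and white samples deviated together across probes (r from 0.239 to 0.320, all over 0.1, against -0.206 to 0.107 for other numbers), so the number was also fitted as a block; the tie comes from the data, not the labels. Other alternatives were the scaling, the floor, a filter on dim probes, variance trend, array weights, ceiling values as missing, similar samples as a random block or averaged, and leaving out each sample. The fit was tested on simulated data with independent noise on each array. Those data lacked the resemblance between similar samples, so that test cannot show how the resemblance affects the p-values. Python 3.11.15 with pandas 2.3.3, and matplotlib 3.10.9 for plots, made the summaries.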

Additional observations from a re-analysis of the deposited data

Results flagged for a closer look

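In 3 of 38 groups of 4 normalized values (19 genes in 2 lights), 1 sample stood far from the other 3. Chance gives about 1 in 20 for independent values. AT4G31530 in red sample 1 had a normalized log2 intensity of 4.44, with 5.20 to 5.32 in the other red samples. AT4G17070 in red sample 3 had 1.41, with 3.13 to 3.37 in the others, and its deposited intensity was 3.40 against 10.2 to 13.9. AT3G26580 in red sample 1 had 1.33, with 1.67 to 1.73 in the others.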

How the results depend on the processing

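With values as deposited, and also after centring on array medians, 8 genes were called higher and 1 lower in each case, against 4 and 4, and the median log2 difference was 1.05 and 1.25, against 0.19. AT4G31530 had -0.09 after quantile normalization, 1.05 as deposited and 1.25 after centring. With samples 1 and 2, and 3 and 4, as random blocks 0 genes were called higher and 1 lower (114 of all probes), and by limma 0 higher and 0 lower with similar samples averaged (0 of all probes), where 7 genes and 458 probes had an unadjusted p under 0.05. A floor per array gave 1254 calls over all probes, against 666, and 6 higher and 4 lower among the 19 genes, as did array weights. The replicate block gave 6 higher and 4 lower (788 calls over all probes); it added AT5G38360 and AT1G76450 and changed no other call of the 19 genes. Without 1 sample at a time the counts were 4 to 5 higher and 3 to 4 lower (455 to 614 over all probes) and the median was 0.010 to 0.50; between samples 3 and 4 of the lights, a split added after seeing the data, it was 0.47. A variance trend, an offset, a raised floor, the dim-probe filter and missing ceiling values left 4 and 4. A threshold of 1 gave 53 genes, one of 3 gave 16. The ceiling and the brightness gap between red and white arrays limit what can be said of the brightest probes. Causes were not tested.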
